A study of Mus musculus with 2 samples.

Results

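The genes described here are the Toll-like receptors, NOD-type receptors and inflammasome components, their adaptors, kinases and co-receptors, the NF-kB subunits and the negative regulators of the pathway in mouse intestine. A list of 41 genes was taken from the array by gene name, keeping all of their probes that are not control spots. They have 58 of the 55681 non-control probes, and 24061 genes carry a name on the array in all. Intestinal segments of male wild type mice had been incubated for 2 h with 0.5 µM of the primary bile acid cholic acid, or with vehicle (DMSO at 0.05% and ethanol at 0.25%), and RNA was taken from their epithelial cells. Each condition was measured on 1 one-colour Agilent array, and both arrays lay on 1 slide and were read in 1 scan. The labels state a solvent for the vehicle alone and give neither the number of mice nor the position of the segments along the gut. By its title the series looks for candidate target genes of the nuclear receptor PPARα that depend on bile acids. With 1 array per condition no difference has a replicate check, so none was tested and genes are described by size.

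Toll-like receptors bind microbial lipids, proteins or nucleic acids at the cell surface or in endosomes, and signal through TIR-domain adaptors and IRAK kinases to the ubiquitin ligase TRAF6. NOD proteins sense peptidoglycan fragments in the cytosol, and related NLR proteins assemble inflammasomes that activate caspase-1. Both arms can free NF-kB dimers from their inhibitors, after which the dimers enter the nucleus and drive inflammatory genes and several of their own inhibitors. In the gut the epithelium and the resident immune cells both carry parts of this machinery.

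The highest differences were those of an NF-kB subunit and an inhibitor of NF-kB, and none of the 30 genes measured on both arrays was 2-fold apart. Nfkb2, which encodes the p100 precursor of the p52 subunit, had a 1.91-fold higher scaled signal in cholic acid. Nfkbia, which encodes the inhibitor that holds NF-kB dimers in the cytoplasm, was 1.86-fold higher there. Nod1, Pglyrp1, Tnfaip3 and Tirap followed at 1.67-fold, 1.65-fold, 1.59-fold and 1.54-fold higher. At the other end, the endosomal receptor Tlr13 and the LPS co-receptor Cd14 were each 1.37-fold lower on the cholic acid array, and the adaptor Myd88 was 1.3-fold lower.

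Both of the highest differences rest on 1 probe each, whose sequences on the deposited arrays are shown so that the transcript stretch measured can be seen. The Nfkb2 probe lies at chr19:46386146-46386285 on the plus strand and the Nfkbia probe at chr12:56590945-56591440 on the minus strand of mm9. Each probe has 60 bases but spans 140 and 496 bases of genome, so both cross an intron. Exon annotation for that build was not used here.
Nfkb2 probe: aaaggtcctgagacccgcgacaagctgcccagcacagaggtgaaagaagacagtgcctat
Nfkbia probe: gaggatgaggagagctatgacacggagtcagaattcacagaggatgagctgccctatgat

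Of the 6 genes that were highest in cholic acid, 4 had a match to the kappaB consensus, the 10-base motif of NF-kB, in the 250 bases before an annotated transcription start. The motif was searched by that name on both strands with overlapping matches counted. These windows, from RefSeq on GRCm38.p6, are shown with the matched letters in capitals, because the 4 genes stand near the top of the list. Where a gene has several starts, the window of the start farthest upstream is shown.
Nfkb2 chr19:46304487-46304736, plus strand: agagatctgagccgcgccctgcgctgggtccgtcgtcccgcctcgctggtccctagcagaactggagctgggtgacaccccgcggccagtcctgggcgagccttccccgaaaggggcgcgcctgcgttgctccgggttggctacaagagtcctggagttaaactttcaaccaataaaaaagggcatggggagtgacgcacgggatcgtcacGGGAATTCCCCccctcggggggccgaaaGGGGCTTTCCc
Nfkbia chr12:55492648-55492897, minus strand: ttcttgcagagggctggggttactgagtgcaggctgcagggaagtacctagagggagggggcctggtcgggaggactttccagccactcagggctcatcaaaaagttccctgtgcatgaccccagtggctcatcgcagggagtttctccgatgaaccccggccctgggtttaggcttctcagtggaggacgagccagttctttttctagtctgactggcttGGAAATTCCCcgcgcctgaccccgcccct
Tnfaip3 chr10:19015411-19015660, minus strand: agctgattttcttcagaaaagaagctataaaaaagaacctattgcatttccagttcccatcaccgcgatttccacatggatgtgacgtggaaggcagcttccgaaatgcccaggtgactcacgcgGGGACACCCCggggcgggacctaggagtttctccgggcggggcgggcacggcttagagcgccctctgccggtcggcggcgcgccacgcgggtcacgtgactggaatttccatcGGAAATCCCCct
Pglyrp1 chr7:18884440-18884689, plus strand: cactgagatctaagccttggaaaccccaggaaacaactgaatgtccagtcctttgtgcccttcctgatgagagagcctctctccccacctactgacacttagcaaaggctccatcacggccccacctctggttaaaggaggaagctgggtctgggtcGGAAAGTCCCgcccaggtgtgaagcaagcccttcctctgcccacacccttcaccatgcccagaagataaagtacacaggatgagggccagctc

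The match in the Nfkbia window begins 29 bases before the start. In the Nfkb2 window a pair of overlapping matches begins 39 bases before the start and a further one 11 bases before it. In the Tnfaip3 window the matches begin 125 and 12 bases before the start, and in the Pglyrp1 window 93 bases before it. The reference table held 32 of the 41 genes, of which 8 (25%) had a match in at least 1 window, against 8.23% of 27025 genes in the table. The other 4 were Tlr2, Tlr3, Nlrp3 and Irak1, of which Irak1 alone was measured on both arrays. Nod1 and Tirap had no match in these windows, which says only that these letters are not there. Among 27 genes of a list of NF-kB targets described below, 7 (25.9%) had a match. Of these 7, Cxcl10 was 5.92-fold higher in cholic acid, while Bcl2l1 and Sod2 differed by -0.215 and -0.141. Il6, Cxcl1, Cxcl2 and Ccl20 were not well above background on either array. A match is a description of sequence, and whether a factor binds it was not measured.

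A probe counted as measured where it was well above background on both arrays, by the flag in the scanner files. The 30 genes with such a probe were 73.2% of the 41, against 53.8% of all named genes (12942 of 24061). Another 9 genes were not well above background on either array: Tlr2, Tlr4, Tlr5, Tlr8, Tlr11, Nlrp3, Ripk2, Ticam2 and Irak3. They include the receptors for bacterial lipopeptides, lipopolysaccharide and flagellin, and the kinase that acts directly downstream of the NOD receptors. In these bulk samples fewer cells of a type and less RNA per cell cannot be told apart.

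The signal given for each gene is the processed scanner brightness, and differences are log2 cholic acid minus vehicle after each array was scaled on its 75th percentile over measured probes. The scaling point was a signal of 741 on the cholic acid array and 1060 on the vehicle array, so equal scanner signals correspond to a log2 difference of 0.52. Nlrp6 shows the effect of this scaling, with 479 on the cholic acid array and 694 on the vehicle array and a scaled difference of -0.02. As a yardstick for single genes, the robust SD of the differences of the 1000 genes with the closest mean signal is called the spread. It was taken around the median of those genes, whereas each gene's difference is set against it from 0. Genes above 0 therefore appear slightly farther out where that median is above 0. The spread ranged from 0.36 near Relb to 0.58 near the dim Tlr1. It did not widen steadily towards dim signals, with 0.45 near the still dimmer Nod2. In the plot of probe signals, the values of single probes extend over more than 3 decades, and most open symbols lie at the dim end.

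**Figure D1:**
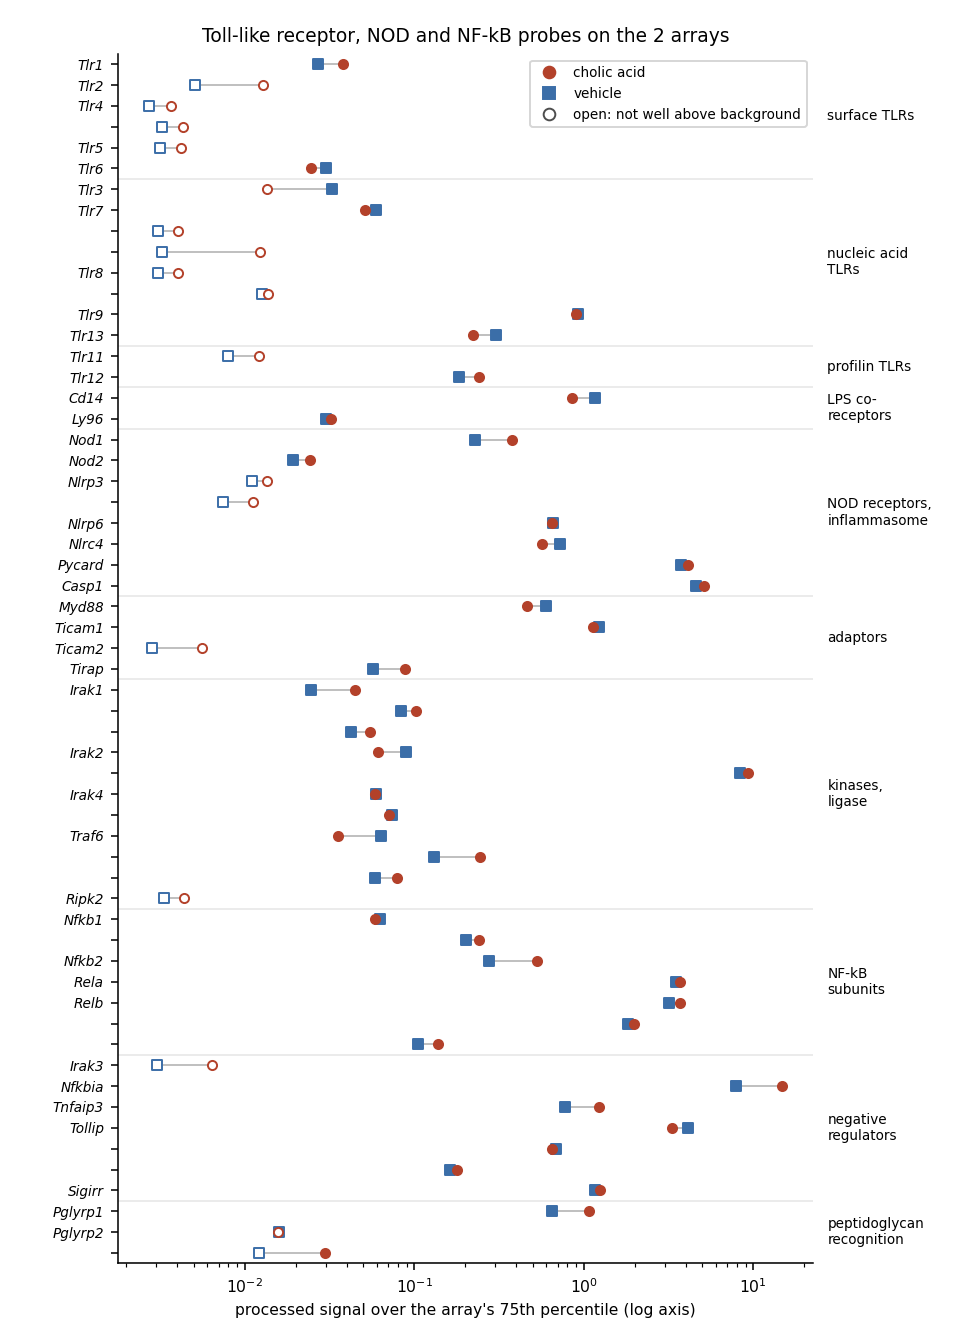
Processed signal over the array's 75th percentile (x axis, log scale, no unit) for each of the 58 probes of the 41 genes, 1 row per probe, with cholic acid as circles and vehicle as squares. Open symbols were not well above background; the 9 genes with open symbols alone sit at the dim end, and Nfkbia, Nfkb2, Nod1 and Pglyrp1 show circles to the right of their squares.

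Across the 30 measured genes the log2 differences had a median of 0.09, between quartiles of -0.12 and 0.47, and ran from -0.46 to 0.94. All genes measured on both arrays had a median of 0.08, between quartiles of -0.22 and 0.44. The difference was above 0 for 18 of the 30 genes and below 0 for 12, beside 7448 and 5494 of all 12942 genes. No gene of the 30 was at least 2-fold higher, where 6.58% of all measured genes were, and 0 were at least 2-fold lower, where 2.05% of all were. At the 1.5-fold limit 6 of 30 (20%) were higher, close to the 17.9% among all genes, and 0 were lower, against 7.68% of all. No gene was 3-fold apart, where 1.38% of all were that much higher and 0.325% that much lower. The difference of 22 genes was within the spread of genes near in signal, 8 lay beyond it, and Nfkb2 and Nfkbia lay beyond 2 spreads. The spread comes from the same 2 arrays, so some of all genes lie beyond it by construction. That share is not given here, so these counts do not set the 30 genes apart. The signs rest on the scaling, and 9 of 30 genes kept 1 sign in all 14 settings tried. Of these, Nfkb2 and Nfkbia were above 0 and Tlr9, Tlr13, Nlrc4, Myd88, Ticam1, Cd14 and Tollip below. Scaling on the spike-in probes moved the difference of every gene by -0.83. Only the largest differences can stay above 0 under it, while genes below 0 keep their sign. The share of all genes that kept 1 sign is not given.

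**Figure D2:**
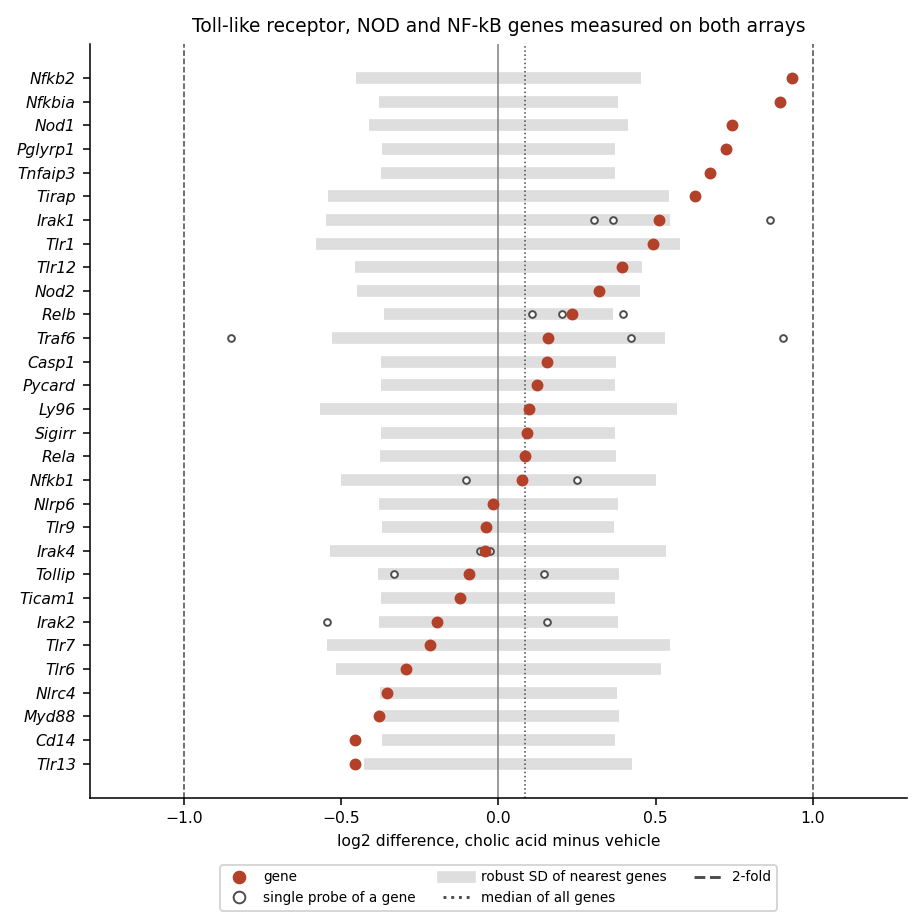
Log2 difference, cholic acid minus vehicle (x axis), of the 30 genes measured on both arrays, 1 row per gene, with single probes as small open circles where a gene has several. Grey bars reach 1 robust SD of the 1000 genes nearest in signal to either side of 0; Nfkb2, Nfkbia, Nod1, Pglyrp1, Tnfaip3 and Tirap lie beyond the bar on the right and Tlr13 and Cd14 on the left, and no gene reaches the dashed 2-fold lines.

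Among the 5 receptors for surface and bacterial ligands, 2 were measured, and both were dim. Tlr1, which pairs with Tlr2 on triacylated lipopeptides, had a signal of 28.2 on the cholic acid array and 28.7 on the vehicle array, a difference of 0.49 that was -0.34 under scaling on the spike-ins. Tlr6, the partner for diacylated lipopeptides, had 18.3 on the cholic acid array and 32.1 on the vehicle array, a difference of -0.29 that was 0.24 after another background correction (normexp). Both lay within the spread of their nearest genes, 0.58 and 0.52. Their common partner Tlr2 was not well above background, although its probe was printed 10 times. Its spots on the cholic acid array ranged between 7.81 and 86.7 with a median of 9.82, against 3.41 to 11.0 with a median of 5.29 on the vehicle array. A single bright spot sets the upper end in cholic acid, since the next was at 16.1. Tlr4, the lipopolysaccharide receptor, had probe signals of 2.71 and 3.21 on the cholic acid array and 2.89 and 3.43 on the vehicle array. Tlr5, the flagellin receptor, read 3.09 on the cholic acid array and 3.34 on the vehicle array. The lowest signal of any probe well above background was 11.2 on the cholic acid array and 14.6 on the vehicle array, and both receptors read below it.

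The receptors for nucleic acids were partly measured, and the 3 of 5 with values were below 0, of which Tlr7 was above 0 in 2 of the other settings. Tlr9, which binds unmethylated CpG DNA, had 664 on the cholic acid array and 975 on the vehicle array, a difference of -0.04. Tlr13, which senses bacterial ribosomal RNA in mice, had 164 on the cholic acid array and 322 on the vehicle array. Its difference of -0.46 just passed the spread of 0.43 and stayed below 0 in every setting, between -1.29 and -0.30. Tlr7, a sensor of single-stranded RNA, had 37.8 on the cholic acid array and 62.9 on the vehicle array on 1 of its 3 probes, a difference of -0.22, with the sign turned without a filter on dim probes (0.70) and under normexp (0.12). Tlr3, the receptor for double-stranded RNA, was well above background on the vehicle array alone, with 9.94 on the cholic acid array and 34.6 on the vehicle array. It was at least 2.16-fold lower in cholic acid, where such a bound sets the brighter array against the higher of the dim probe and the lowest signal well above background on the dim array. Neither probe of Tlr8 was well above background on either array, with 3 and 10.1 on the cholic acid array and 3.25 and 13.4 on the vehicle array.

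Of the receptors for profilin of protozoan parasites, which work in mice and not in humans, Tlr12 was measured and Tlr11 was not. Tlr12 had 179 on the cholic acid array and 195 on the vehicle array, a difference of 0.39 within a spread of 0.46, and -0.44 under scaling on the spike-ins. Tlr11 read 8.94 on the cholic acid array and 8.43 on the vehicle array. Both co-receptors of lipopolysaccharide were measured, although Tlr4 itself was not well above background. Cd14, which hands lipopolysaccharide to the receptor complex, had 632 on the cholic acid array and 1240 on the vehicle array. Its difference of -0.46 was beyond the spread of 0.37 and lay between -1.29 and -0.42 over all settings. Ly96, the MD-2 subunit that binds the lipid itself, was dim, with 24.0 on the cholic acid array and 32.1 on the vehicle array, a difference of 0.10.

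Of the NOD receptors and inflammasome components 6 of 7 were measured, with a median of 0.14. Nod1, which senses a peptidoglycan fragment typical of Gram-negative bacteria, had 281 on the cholic acid array and 240 on the vehicle array. Its difference of 0.74 was beyond the spread of 0.41 and was -0.09 under scaling on the spike-ins alone. Nod2, the sensor of muramyl dipeptide, gave a dim signal, with 17.9 on the cholic acid array and 20.5 on the vehicle array and a difference of 0.32. That value was within a spread of 0.45, and 4 of the settings turned its sign. The inflammasome adaptor Pycard, known as ASC, was bright, with 3040 on the cholic acid array and 3990 on the vehicle array, a difference of 0.12. Casp1, the protease that the inflammasome activates, had 3810 on the cholic acid array and 4890 on the vehicle array, a difference of 0.16. Both values were well within their spread of 0.37. Nlrc4, which forms an inflammasome with NAIP sensors of flagellin and secretion systems, had 419 on the cholic acid array and 766 on the vehicle array. Its difference of -0.35 was just within the spread of 0.38 and stayed below 0 in every setting. Nlrp6, an NLR protein known for its role in the gut epithelium, differed by -0.02, as given above. Nlrp3, the best known inflammasome sensor of myeloid cells, was not well above background on either of its probes, with 8.22 and 10 on the cholic acid array and 7.86 and 11.7 on the vehicle array.

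Of the 4 TIR-domain adaptors, 3 were measured, and they did not share a sign. Myd88, the adaptor of most Toll-like receptors, was printed 10 times, with spots between 315 and 366 on the cholic acid array (median 349) and between 569 and 689 on the vehicle array (median 643). The spots of the arrays did not overlap before scaling, and the SD between spots was 0.08 on the log2 scale on each array. These spots share 1 RNA sample per array, so they describe the measurement and not the spread between animals. The scaled difference of Myd88 was -0.38, within the spread of 0.39, and between -1.21 and -0.31 over all settings. Ticam1, the adaptor TRIF of Tlr3 and Tlr4, had 841 on the cholic acid array and 1310 on the vehicle array, a difference of -0.12. Tirap, which bridges Tlr2 and Tlr4 to Myd88, had 64.9 on the cholic acid array and 60.2 on the vehicle array. Its difference of 0.62 was beyond the spread of 0.54 and was -0.20 under scaling on the spike-ins. Ticam2, the bridging adaptor for Ticam1, read 4.14 on the cholic acid array and 3.02 on the vehicle array, neither well above background.

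The kinases and the ubiquitin ligase had 4 of 5 genes measured, with a median of 0.06, and for 2 of them the probes of 1 gene disagreed in sign. Irak4, the first kinase recruited to Myd88, had 47.5 on the cholic acid array and 70.0 on the vehicle array, a difference of -0.04. Irak1, which Irak4 phosphorylates, had 46.8 on the cholic acid array and 47.0 on the vehicle array over 3 probes that were all above 0, with a mean difference of 0.51 within a spread of 0.55. Irak2 had a dim probe with 45.2 on the cholic acid array and 94.4 on the vehicle array (difference -0.55) and a bright one with 6870 on the cholic acid array and 8820 on the vehicle array (difference 0.16). The brightest probe therefore gives the opposite sign to the mean of -0.20. Traf6, the ubiquitin ligase on which the pathway converges, had the widest disagreement. Its probe at chr2:101519206-101519265 of mm9 had 182 on the cholic acid array and 139 on the vehicle array, a difference of 0.90. The probe at chr2:101526308-101526367 had 58.4 on the cholic acid array and 62.4 on the vehicle array, a difference of 0.42. The third, at chr2:101540660-101540719, had 26.1 on the cholic acid array and 67.3 on the vehicle array, a difference of -0.85. By the array's annotation the 3 probes are assigned to different transcript records, and only the third to a RefSeq one, so they may measure different transcripts. The mean of 0.16 for Traf6 is therefore an average of opposed values and gives no direction for the gene. Ripk2, the kinase that NOD receptors recruit, read 3.25 on the cholic acid array and 3.51 on the vehicle array.

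All 4 NF-kB subunits measured here had a difference above 0, as had 7448 of all 12942 genes. Scaling on the spike-ins turned all but Nfkb2, and several other scalings turned Nfkb1 and Rela. Nfkb2 had 393 on the cholic acid array and 294 on the vehicle array. Its difference of 0.94 was over 2 spreads (0.45 each) and lay between 0.10 and 0.94 over all settings. Relb, the usual partner of p52, had 740 on the cholic acid array and 900 on the vehicle array over 3 probes, all above 0, with a mean difference of 0.24 within a spread of 0.36. Rela, the main activating subunit of the canonical pathway, had 2750 on the cholic acid array and 3710 on the vehicle array, a difference of 0.08. Nfkb1, the precursor of p50, had 88.0 on the cholic acid array and 120 on the vehicle array, a difference of 0.07 averaged over probes of -0.10 and 0.25. Of these 4 subunits only Nfkb2 lay beyond its spread. Rel, the remaining subunit gene and no member of the list of 41, read 2.85 on the cholic acid array and 3.08 on the vehicle array and was not well above background on either.

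Of the negative regulators 4 of 5 were measured, with a median of 0.38. Nfkbia, the inhibitor IkB-alpha, had 10900 on the cholic acid array and 8390 on the vehicle array. Its difference of 0.89 was over 2 spreads (0.38 each) and lay between 0.06 and 0.89 over all settings. Tnfaip3, the ubiquitin-editing enzyme that shuts off signalling to NF-kB, had 915 on the cholic acid array and 821 on the vehicle array. Its difference of 0.67 was beyond the spread of 0.37 and was -0.16 under scaling on the spike-ins. Sigirr, an inhibitory receptor of gut epithelium and other cells, had 924 on the cholic acid array and 1240 on the vehicle array, a difference of 0.09 that several scalings turned. Tollip, which binds and restrains IRAK kinases, had 538 on the cholic acid array and 820 on the vehicle array, a mean of -0.09 over probes of -0.33, -0.09 and 0.15. Nfkbia and Tnfaip3 lay beyond their spread, whereas the differences of Sigirr and Tollip were well within theirs. Irak3, an inhibitory kinase best known from macrophages, read 4.76 on the cholic acid array and 3.21 on the vehicle array, not well above background on either.

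One of the peptidoglycan recognition proteins was measured on both arrays. Pglyrp1, a secreted bactericidal protein also stored in neutrophil granules, had 796 on the cholic acid array and 690 on the vehicle array. Its difference of 0.72 was beyond the spread of 0.37 and was -0.11 under scaling on the spike-ins. Pglyrp2, an amidase that cleaves peptidoglycan, had no probe that was measured on both arrays. Its probe at chr17:32554974-32555033 of mm9 had 22.1 on the cholic acid array and 12.8 on the vehicle array which makes it at least 2.17-fold higher. The other, at chr17:32555338-32555397, had 11.6 on the cholic acid array and 16.8 on the vehicle array and was at least 1.01-fold lower. Both probes of Pglyrp2 lie close to the background, and the second gives no direction.

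Among the 30 genes 23 rested on 1 measured probe and 7 on several, and in 4 of these 7, Irak2, Traf6, Nfkb1 and Tollip, the probes differed in sign. How often this occurs among all genes with several measured probes is not given. In 6 of the 7 (85.7%) the probe nearest the 5′ end of the gene had a higher difference than the one nearest the 3′ end, with a median gap of 0.35. The same held for 56.2% of 2864 genes with several measured probes at least 60 bases apart, with a median gap of 0.06. Traf6 had a gap of 1.75 over 21454 bases of genome, between probes assigned to different transcript records, and Irak1 one of 0.56 over 2942 bases. In Tollip it was 0.48 and in Nfkb1 0.35. Irak2 went the other way, with a gap of -0.70. With so few genes the share is a description, and the part of RNA integrity or labelling in it was not tested. Of the 58 probes 57 share no run of 20 bases with an array probe of another gene, and a Tlr13 probe shares one with 1 such probe.

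**Figure D3:**
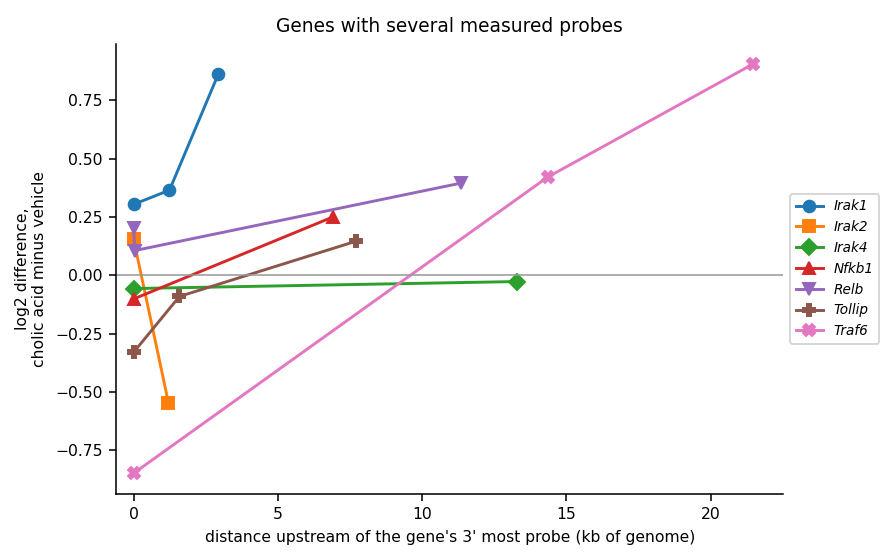
Log2 difference, cholic acid minus vehicle (y axis), of each measured probe against its distance upstream of the gene's probe nearest the 3′ end (x axis, kb of genome), for the 7 genes with several measured probes. Lines join the probes of a gene; the line of Traf6 climbs from -0.85 to 0.90 and that of Irak2 is the one that descends.

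The rest of the pathway was described with 4 further lists of receptors, signalling proteins, negative regulators and NF-kB target genes, 117 genes in all, of which 77 were measured on both arrays. Among them 9 were 2-fold or more higher and 3 at least 2-fold lower on the cholic acid array, where 6.58% of all measured genes were higher and 2.05% lower by as much, and their median was 0.13. Of the 9 higher genes 6 were in the list of 39 NF-kB target genes.

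Among the NF-kB target genes 17 were measured, with a median of 0.49. Of these, 6 were 2-fold or more higher in cholic acid and 0 were lower by as much, beside 6.58% and 2.05% among all genes. Cd83, a surface protein of activated lymphocytes and dendritic cells, had 208 on the cholic acid array and 32.1 on the vehicle array, 9.27-fold higher. Cxcl10, an interferon-inducible chemokine, had 517 on the cholic acid array and 125 on the vehicle array, 5.92-fold higher. Nos2, the inducible nitric oxide synthase, had 2460 on the cholic acid array and 1100 on the vehicle array, 3.19-fold higher. The remaining 3 were the chemokines Ccl4 and Ccl3 and the signalling adaptor Traf1. Ccl4 had 748 on the cholic acid array and 395 on the vehicle array, and Ccl3 had 125 on the cholic acid array and 73.4 on the vehicle array. Traf1 had 324 on the cholic acid array and 208 on the vehicle array, a log2 difference of 1.16. Under every setting these 6 stayed above 0, but their count past 2-fold was 2 under scaling on the spike-ins.

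Other NF-kB targets were lower in cholic acid or not well above background. Lcn2, an antimicrobial siderophore-binding protein, had 76.9 on the cholic acid array and 202 on the vehicle array, a log2 difference of -0.88. Csf2, a myeloid growth factor, had 20.8 on the cholic acid array and 48.9 on the vehicle array, a log2 difference of -0.72 that was 0.05 under normexp. In all 11 of the 17 were above 0 and 6 below, where 7448 of all 12942 genes were above 0. On neither array were 18 further targets well above background. The classical cytokines Tnf, Il1b and Il6, the chemokines Cxcl1, Cxcl2 and Ccl20, and Icam1 and Ptgs2 were among them.

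In the list of other negative regulators 16 of 20 genes were measured, with a median of 0.34. Of these, 1 was at least 2-fold higher (6.58% among all genes) and 1 at least 2-fold lower (2.05% among all genes). Nfkbie, which encodes IkB-epsilon, an inhibitor of the same family as Nfkbia, had 135 on the cholic acid array and 36.3 on the vehicle array. It was 5.32-fold higher, a log2 difference of 2.41 against a spread of 0.54. Zfp36, the RNA-binding protein tristetraprolin that destabilises cytokine transcripts, had 120 on the cholic acid array and 393 on the vehicle array, a difference of -1.20.

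Among 25 other receptors and sensing cofactors 16 were measured, with a median of 0.21. Ly86, the MD-1 protein that escorts the Toll-like protein CD180 to the surface of B cells and myeloid cells, had 140 on the cholic acid array and 54.2 on the vehicle array, 3.70-fold higher. Nlrp1a, a rodent inflammasome sensor, had 3520 on the cholic acid array and 13600 on the vehicle array, 2.70-fold lower. Cd36, a scavenger and fatty acid receptor that is also a PPARα target, had 295 on the cholic acid array and 961 on the vehicle array, 2.28-fold lower. Lbp, which delivers lipopolysaccharide to Cd14, was well above background in cholic acid alone, with 41.3 on the cholic acid array and 15.6 on the vehicle array, at least 3.79-fold higher. Clec7a, the beta-glucan receptor of myeloid cells, was well above background on the vehicle array alone, with 12.5 on the cholic acid array and 36.0 on the vehicle array, at least 2.01-fold lower.

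The other signalling proteins gave the most even picture, with 28 of 33 measured and a median of -0.02. Of these 28, 1 was at least 2-fold higher and 0 at least 2-fold lower, beside 6.58% and 2.05% among all genes. Irf5, a transcription factor of the Myd88 pathway, was dim, with 35.4 on the cholic acid array and 23.8 on the vehicle array, a difference of 1.09 against a spread of 0.57. Tbk1, a kinase of the interferon arm, had 291 on the cholic acid array and 770 on the vehicle array, a difference of -0.89. Irf7, an interferon-inducible transcription factor, had 570 on the cholic acid array and 1360 on the vehicle array, a difference of -0.74.

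**Figure D4:**
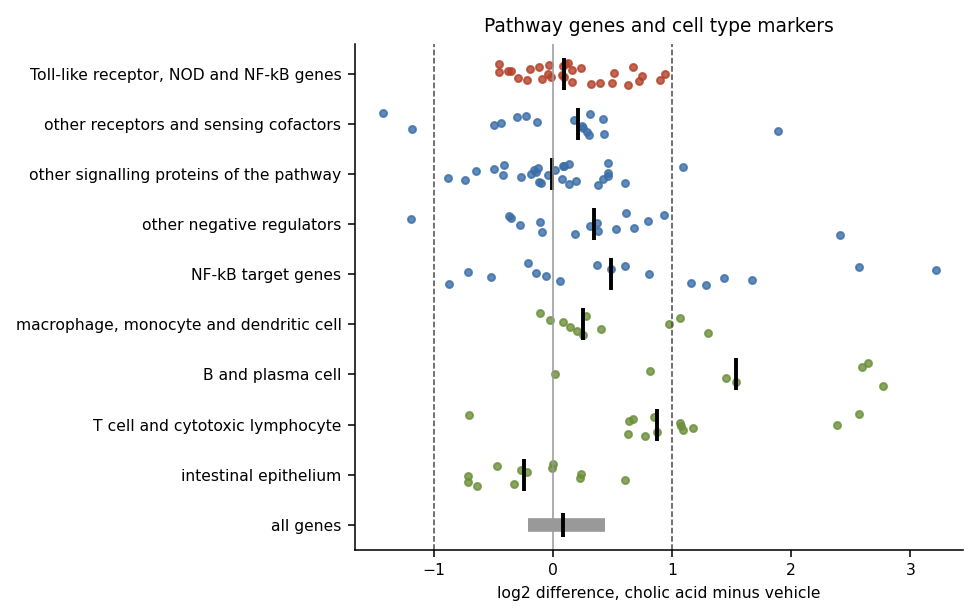
Log2 difference, cholic acid minus vehicle (x axis), of single genes measured on both arrays, in rows for the genes described here (red), 4 further pathway lists (blue) and 4 lists of cell type markers (green), with list medians as black ticks. The grey bar spans the quartiles of all genes; the medians are 0.09 for the genes described here, 0.49 for NF-kB targets, 1.54 for B and plasma cell markers and -0.24 for epithelial markers.

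Markers of immune cells also differed between the arrays, and several of the genes above are known from such cells. All 12 epithelial markers were measured, with a summed signal, scaled to the percentile of the vehicle array, of 1082018 on the cholic acid array and 1009001 on the vehicle array and none 2-fold apart. Of these markers 8 were below 0, with a median of -0.24, and without Fabp2 the sum was 587065 on the cholic acid array and 684001 on the vehicle array, a choice made after seeing the data. Of 9 B and plasma cell markers on the array 7 were measured, 5 of them at least 2-fold higher in cholic acid, with a summed signal of 4739 on the cholic acid array and 3414 on the vehicle array. From the same list Ms4a1, a surface protein of B cells, was well above background in cholic acid alone, at least 16.1-fold higher. All 13 T cell and cytotoxic lymphocyte markers were measured, 6 of them at least 2-fold higher, with sums of 181126 on the cholic acid array and 117343 on the vehicle array. Of 18 macrophage, monocyte and dendritic cell markers on the array 11 were measured, 2 of them at least 2-fold higher, with sums of 3496 on the cholic acid array and 2619 on the vehicle array, while Lyz2, Adgre1 and Flt3 were well above background on 1 array alone and Fcgr1, Cd163, Cd209a and Xcr1 were not well above background on either. Of 9 neutrophil markers 4 were measured, with a median of 0.05, and S100a8, S100a9, Cxcr2 and Mpo were not well above background on either array. Markers of distal small intestine differed as well, with 3 of 5 higher by 2-fold or more in cholic acid. Fabp6 was 39.9-fold higher, the highest difference of all measured genes, with 1320 on the cholic acid array and 47.3 on the vehicle array. Cubn of the same list was 1.92-fold lower. All 7 measured markers of smooth muscle and fibroblasts (of 10) were above 0, with a median of 0.57, and Cnn1 and Dcn were 3.34-fold and 3.03-fold higher. Paneth cell markers had a median of -0.14, goblet cell markers 0.06 and the 2 measured endothelial markers 0.07. Retnlb, from goblet cells, was well above background in cholic acid alone, at least 97.7-fold higher, and Pla2g2a, from Paneth cells, on the vehicle array alone, at least 19.3-fold lower. Both stand apart from their lists, whose measured genes lay between -0.225 and 0.368 (goblet cell) and between -0.565 and 0.26 (Paneth cell). The cause of either difference was not tested. What part cell makeup or gut position has in the differences of Nfkb2, Nfkbia, Nfkbie, Cd83, Ccl3, Ccl4, Traf1 and Ly86 was not tested.

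Each difference was also set against the median of all genes. The percentile, median and spike-in scalings move every gene by 1 amount, so they give the same relative values by construction. Naming by accession changed nothing either, so the 14 settings are not 14 separate checks. Of the 30 genes 15 stayed on 1 side of the median of all genes in all 14 settings, and the share of all genes that did so is not given. Tlr1, Nod1, Irak1, Tirap, Nfkb2, Nfkbia, Tnfaip3 and Pglyrp1 stayed above it, and Tlr13, Nlrc4, Myd88, Irak4, Ticam1, Cd14 and Tollip stayed below. Relative to all genes, Nfkb2 lay between 0.54 and 0.92 and Nfkbia between 0.49 and 0.91 on the log2 scale. The median of the 30 genes minus that of all genes was 0.01 as reported, and between -0.15 and 0.06 over the settings.

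**Figure D5:**
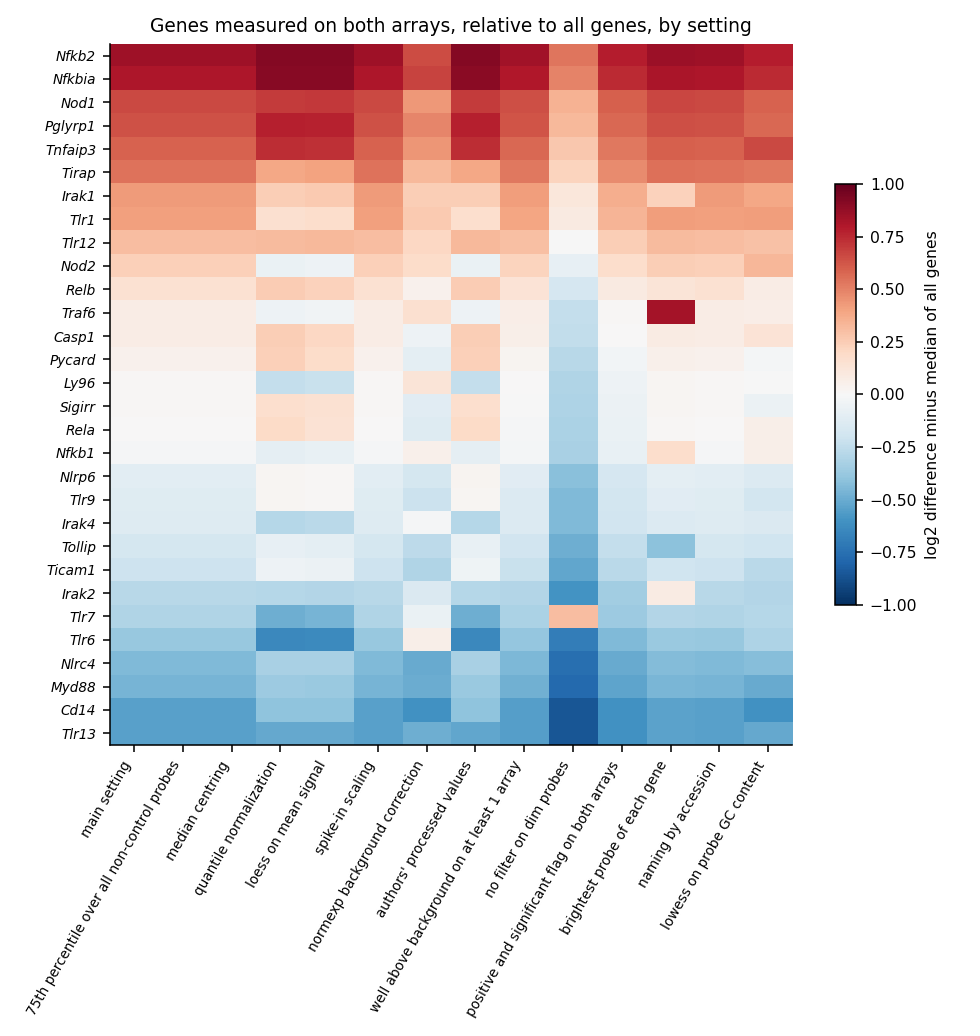
Log2 difference, cholic acid minus vehicle, minus the median of all genes (colour, red above and blue below) for the 30 measured genes (rows) under 14 ways of scaling, background correction, filtering and probe choice (columns). Nfkb2 and Nfkbia are red and Myd88, Cd14 and Tlr13 blue in every column; Traf6 is the gene whose value depends most visibly on the choice of probe.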

How the data were processed

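The deposited scanner files hold intensity values from 1 one-colour Agilent array per condition, made with Feature Extraction 10.7.1.1 per the file headers (version 9.5.1.1 per the submitters' processing notes). The processed signal is background-subtracted and detrended within the array, per the file headers, and probe positions are on mm9. The authors' deposited table of processed intensities was used as an alternative. Spots flagged as non-uniform or population outliers numbered 119 on the cholic acid array and 124 on the vehicle array. They were left out unless all spots of the probe were flagged on that array, and 0 spots were saturated. Spots of a probe were averaged on the log2 scale, and the result was reduced by the array's 75th percentile over the 22615 probes (40.62% of 55681) well above background on both arrays, a probe being so called where at least 50% of its spots were. A gene's value is the mean over such probes. Genes were named through RefSeq accessions of GRCm38.p6 and otherwise by the names in the files.

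With 1 array per condition no test, p-value or standard error was computed, and the number of arrays limits the precision. Among 227 probes spotted 10 times, the SD of log2 signal between spots was taken on each array. Combined over the 2 arrays as the root of their summed squares, these SDs had a median of 0.12. The text accounts for every one of the 41 genes. From each further list it gives those at least 2-fold apart and otherwise the 2 with the largest difference to either side, and other genes named from the lists, bounds included, were chosen after their values were seen. The genes, lists and most settings were chosen with earlier results of these data known. Alternatives covered scaling, background correction, dim-probe filters, probe choice, gene naming and fold limits, and a lowess on probe GC content (span 0.3) was added after seeing the data. Python 3.11.15, numpy 2.4.6, pandas 2.3.3, statsmodels 0.14.6, R 4.3.3 and limma 3.58.1 (normexp, offset 50) were used. Of the marker lists, values are given for a few genes, and some are not reported here.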

Additional observations from a re-analysis of the deposited data

How the results depend on the processing

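The percentile, median and spike-in scalings move every gene by 1 amount, whereas quantile normalization, the loess and the authors' values move genes by different amounts, such as Tlr1 to 0.10 and Nod1 to 0.64 under quantile normalization, against 0.49 and 0.74 as reported. The median of the 30 genes, 0.09 as reported, was -0.13 with the percentile taken over all probes that are no controls, -0.04 with median centring, -0.043 with quantile normalization, -0.024 with a loess on mean signal, -0.74 with scaling on 8 spike-in probes and -0.041 in the authors' processed values. The median of all genes moved by -0.23, -0.13, -0.15, -0.12, -0.83 and -0.15 under the same settings. Of the genes at least 2-fold apart 76.28% were higher in cholic acid as reported, 44.51% with the percentile over all probes, 51.63% in the authors' values and 3.19% with the spike-ins. Normexp moved the median of all genes by 0.10 and left that of the 30 at 0.20. Without a filter on dim probes all 41 genes entered, with a median of 0.26.

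None of the 30 was 2-fold higher and none 2-fold lower as reported. The count lower was 7 of 30 with the spike-ins, where it was 3697 of 12942 among all genes. With probes well above background on at least 1 array it was 1 of 32 (533 of 14318 among all genes). It was 1 of 41 without a filter (634 of 24061) and 1 of 36 with the positive and significant flag (545 of 16502). The count higher was 2 of 41 without a filter (2973 of 24061 among all genes) and 1 of 36 with that flag (1723 of 16502). At the 1.5-fold limit it was 6 of 30 (2312 of 12942 among all genes). The 6 NF-kB targets at least 2-fold higher became 2 with the spike-ins, 12 without a filter and 3 at a 3-fold limit. Among all genes these counts were 122 of 12942, 2973 of 24061 and 179 of 12942. The cause of these shifts was not tested. Matching the genes by accession gave the same 58 probes. No result past 2-fold reversed. Signals near background limit what can be said of dim genes such as Tlr1, Tlr6 and Nod2. No paired analysis was possible because each condition has 1 array.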
